A study of Harpegnathos saltator with 19 samples.

Results

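The 6 genes described here encode parts of the insulin pathway in the brain of the ant Harpegnathos saltator, whose workers can become reproductives. They are ILP-2 (LOC105188195), ImpL2 (LOC105183446), chico (LOC105180459), Pdk1 (LOC105186906), rictor (LOC105183248) and foxo (LOC105183293). They were taken by name and NCBI gene number from a table of 14001 genes, and all 6 passed the filter on low values that left 9381 genes for testing. Each of the 19 libraries came from the central brain of 1 worker, dissected 10 h after an injection into the head. Into 7 ants went 100 ng of 20E (20-hydroxyecdysone, the ecdysteroid that drives moulting), into 7 others 100 ng of JH3 (juvenile hormone III), and 5 control ants received DMSO. The labels give the caste as worker in every group and give no strain, colony or age in words. The hormones were in a glucose solution, per the labels' protocols, which do not describe the solution of the DMSO control further. Run label 190514 holds 3 libraries of each group, and run label 200212 holds 4 of 20E, 4 of JH3 and 2 of DMSO.

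Insulin-like peptides act through a receptor tyrosine kinase. The adaptor chico, the insect insulin receptor substrate, recruits phosphoinositide 3-kinase to it, and the lipid it makes brings Pdk1 and Akt to the membrane. Pdk1 and the Tor complex that holds rictor each phosphorylate Akt. Active Akt keeps the transcription factor foxo out of the nucleus. In flies, neurosecretory cells of the brain release insulin-like peptides, and the secreted protein ImpL2 binds them and lowers their action. Roles given below are those known for the fly genes with these symbols.

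The libraries held 13.04 to 25.52 M reads on genes, with a median of 18.27 M, as read back from the FPKM values. The scaling in the FPKM values did not follow these reads exactly. Its ratio to the reads, relative to the median library, ran from 0.763 (20E replicate 6) to 1.125 (DMSO replicate 3). A low ratio raises every FPKM value of that library. The fewest reads behind a value of the 6 genes were 314 (ILP-2 in JH3 replicate 2, the library with the fewest reads). Of the 9381 genes, 4779 (50.9%) differed between the run labels, and the run label was therefore included in the fit. Adjusted p-values are those of limma with Benjamini-Hochberg adjustment over all 9381 genes. Hr4, a nuclear receptor of the ecdysone cascade, had 25.1 to 48.0 FPKM in 20E, 1.54 to 2.57 in JH3 and 0.76 to 1.57 in DMSO. E75, another such receptor, had 472 to 882 FPKM in 20E, 110 to 237 in JH3 and 64 to 92.4 in DMSO. Its JH3 libraries thus also lay above the DMSO libraries. Kr-h1, the juvenile hormone response factor, had 1.72 to 14.4 FPKM in 20E, 5.85 to 26.2 in JH3 and 0.405 to 3.09 in DMSO.

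Under 20E the ligand gene ILP-2 and the kinase gene Pdk1 rose over DMSO. Under JH3 Pdk1 rose too, together with foxo. Set against JH3 directly, 20E brains had more ILP-2, more rictor and less foxo transcript. ImpL2 and chico passed the threshold in none of the 3 comparisons. The count was thus 2 of 6 genes for 20E with DMSO, where 3.34% of all tested genes passed. It was 2 of 6 for JH3 with DMSO (0.927% of all tested genes) and 3 of 6 for 20E with JH3 (5.34%). The comparisons with DMSO share the 5 control libraries. The 6 genes and the gene lists below were chosen with earlier results of these data known. Their counts beside the shares of all tested genes are therefore descriptions and no test of the pathway.

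**Figure D1:**
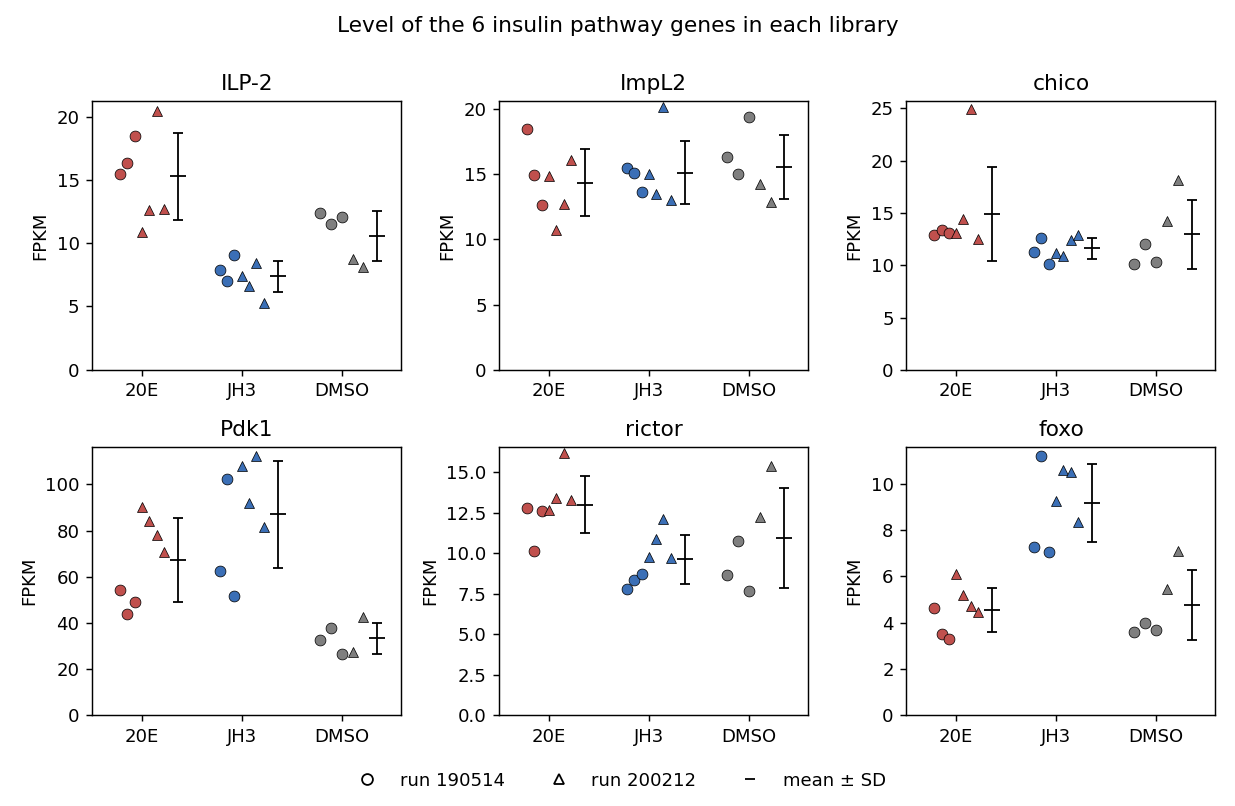
Level of each gene in FPKM (y axis, from 0) in the 7 20E, 7 JH3 and 5 DMSO libraries, with circles for run 190514, triangles for run 200212, and the group mean ± SD beside them. ILP-2 is high in 20E and low in JH3 (10.87 to 20.46 against 5.26 to 9.06 FPKM), foxo is high in JH3, and Pdk1 is above the DMSO libraries in both hormone groups.

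ILP-2, the insulin-like peptide gene, had 15.46, 16.35, 18.45, 10.87, 12.65, 20.46 and 12.68 FPKM in 20E replicates 1 to 7. In JH3 replicates 1 to 7 it had 7.85, 7.04, 9.06, 7.40, 6.63, 8.43 and 5.26 FPKM, and in DMSO replicates 1 to 5 it had 12.36, 11.50, 12.08, 8.77 and 8.14 FPKM. Every 20E library lay above every JH3 library, and 6 of the 7 20E libraries lay above every DMSO library. The group means were 15.3 ± 3.45 FPKM in 20E, 7.38 ± 1.25 FPKM in JH3 and 10.6 ± 1.97 FPKM in DMSO (SD, n = 7, 7 and 5). In bulk tissue, fewer cells of a type and less RNA per cell cannot be told apart.

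ILP-2 rose under 20E relative to DMSO by log2 0.55 ± 0.13 (SE, 95% interval 0.27 to 0.83, adjusted p = 0.0231). The estimates within the runs were 0.46 in 190514 and 0.67 in 200212, and within each run every 20E library lay above every DMSO library. Of all tested genes, 3.83% were apart in this way in both runs. The adjusted p was 0.0643 without 20E replicate 3, 0.0803 without DMSO replicate 4, 0.0829 without DMSO replicate 5 and 0.152 without the run term. In JH3 relative to DMSO the estimate was -0.44 ± 0.13 (95% interval -0.71 to -0.16, adjusted p = 0.188), which did not pass. All 7 JH3 libraries lay below the DMSO mean and 5 of them below every DMSO library. With the replicate number as a block this adjusted p was 0.0221, with library weights 0.0368, and without 20E replicate 6 it was 0.0434.

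Between the hormones ILP-2 was 1.98-fold higher in 20E than in JH3 (log2 0.99 ± 0.12, 95% interval 0.74 to 1.24, adjusted p = 1.74e-05). This was the 80th smallest p of the 9381 genes in that comparison. The estimates within the runs were 1.03 and 0.96. The groups were apart over all 14 libraries, as were 2.15% of tested genes, and within each run, as were 3.61%. Leaving out any 1 library kept the estimate between 0.89 and 1.04, with adjusted p from 4.75e-06 to 8.2e-05.

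ImpL2, whose protein binds insulin-like peptides in flies and whose fly gene was first known as ecdysone-inducible, had 10.72 to 18.47 FPKM in 20E (median 14.8). It had 13 to 20.11 FPKM in JH3 (median 15.0) and 16.30, 15.03, 19.35, 14.25 and 12.87 FPKM in DMSO replicates 1 to 5. The 3 groups overlapped over most of their range. The log2 fold changes were -0.10 ± 0.13 for 20E with DMSO (95% interval -0.37 to 0.17), -0.02 ± 0.13 for JH3 with DMSO (-0.29 to 0.24) and -0.08 ± 0.11 for 20E with JH3 (-0.32 to 0.16). The adjusted p-values ran from 0.738 to 0.999. JH3 replicate 6, at 20.11 FPKM, was the highest of all 19 libraries for this gene.

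The adaptor gene chico had 12.87, 13.40, 13.05, 13.05, 14.38, 24.94 and 12.51 FPKM in 20E replicates 1 to 7. It had 11.29, 12.58, 10.16, 11.21, 10.86, 12.37 and 12.91 FPKM in JH3 replicates 1 to 7, and 10.15, 12.05, 10.34, 14.22 and 18.12 FPKM in DMSO replicates 1 to 5. The 20E libraries other than replicate 6 spanned 12.51 to 14.38 FPKM, and 5 of the 7 lay above every JH3 library. The estimate for 20E with JH3 was log2 0.31 ± 0.13 (95% interval 0.04 to 0.58, adjusted p = 0.257), and 0.19 without 20E replicate 6. With library weights it was 0.27 and passed (adjusted p = 0.0494). Scaled to total reads it was 0.25 (adjusted p = 0.163). For 20E with DMSO it was 0.14 ± 0.14 (-0.16 to 0.44, adjusted p = 0.999), and 0.04 without that library. For JH3 with DMSO it was -0.17 ± 0.14 (-0.46 to 0.13, adjusted p = 0.688).

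Pdk1, the gene of the kinase that phosphorylates Akt in its activation loop, was the most abundant of the 6. It had 54.22, 43.92, 48.93, 90.15, 84.28, 78.04 and 70.76 FPKM in 20E replicates 1 to 7. In JH3 replicates 1 to 7 it had 62.31, 102.13, 51.54, 107.75, 91.96, 112.04 and 81.67 FPKM, against 32.71, 37.65, 26.41, 27.55 and 42.54 FPKM in DMSO replicates 1 to 5. Every library of either hormone group lay above every DMSO library. Of all tested genes, 2.03% were apart in this way for 20E with DMSO and 1.13% for JH3 with DMSO.

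Pdk1 rose 1.86-fold under 20E (log2 0.89 ± 0.17, 95% interval 0.54 to 1.24, adjusted p = 0.00316) and 2.40-fold under JH3 (log2 1.26 ± 0.17, 0.91 to 1.61, adjusted p = 0.000282). The rise under JH3 had the 16th smallest p of all 9381 genes, and that under 20E the 127th. Leaving out any 1 library left both calls in place, with estimates of 0.73 to 0.99 for 20E and 1.10 to 1.36 for JH3. Within run 190514 the estimate for 20E was 0.61, and within run 200212 it was 1.22. The difference between the runs was 0.62 ± 0.32 (adjusted p = 0.998). For JH3 the estimates were 1.10 and 1.5 (difference 0.40 ± 0.32, adjusted p = 0.999). Between the hormones the estimate was -0.37 ± 0.15 (20E with JH3, 95% interval -0.69 to -0.05, adjusted p = 0.245), so a difference in Pdk1 between the hormones was not resolved.

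The gene rictor encodes the subunit that defines Tor complex 2, which phosphorylates Akt. It had 12.82, 10.12, 12.59, 12.70, 13.39, 16.16 and 13.26 FPKM in 20E replicates 1 to 7, and 7.79, 8.37, 8.73, 9.77, 10.89, 12.12 and 9.74 FPKM in JH3 replicates 1 to 7. In DMSO replicates 1 to 5 it had 8.66, 10.77, 7.65, 12.24 and 15.38 FPKM. The DMSO libraries spanned most of the range of both hormone groups, and 6 of the 7 20E libraries lay above every JH3 library.

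The gene rictor was 1.34-fold higher in 20E than in JH3 (log2 0.42 ± 0.09, 95% interval 0.22 to 0.61, adjusted p = 0.00914). Within each run every 20E library lay above every JH3 library, with estimates of 0.48 and 0.37. Of all tested genes, 3.61% were apart within both runs, in 1 direction or the other. Without the run term the adjusted p was 0.128. Neither comparison with DMSO passed (20E, log2 0.21 ± 0.10, adjusted p = 0.599; JH3, log2 -0.21 ± 0.10, adjusted p = 0.622). For 20E with DMSO the estimate was 0.38 within run 190514 and 0.01 within run 200212. For JH3 with DMSO it was -0.10 and -0.36. The differences between the runs were -0.37 ± 0.20 (adjusted p = 0.998) and -0.26 ± 0.20 (adjusted p = 0.999). The level of rictor was higher in the later run by log2 0.36 ± 0.08 (adjusted p = 0.00132).

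The transcription factor gene foxo, the end point of the cascade, had 4.64, 3.50, 3.30, 6.09, 5.21, 4.71 and 4.45 FPKM in 20E replicates 1 to 7. It had 7.26, 11.21, 7.06, 9.26, 10.59, 10.51 and 8.35 FPKM in JH3 replicates 1 to 7, and 3.60, 3.99, 3.67, 5.47 and 7.10 FPKM in DMSO replicates 1 to 5. The JH3 libraries lay above every 20E library, and 6 of the 7 above every DMSO library. Of all tested genes, 2.15% were apart between 20E and JH3 in 1 direction or the other. Within each run all JH3 libraries lay above all DMSO libraries, as was the case in 1 direction or the other for 2.48% of tested genes.

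The level of foxo rose 1.79-fold in JH3 with DMSO (log2 0.84 ± 0.13, 95% interval 0.57 to 1.11, adjusted p = 0.00135, the 28th smallest p). The estimate was 1.06 within run 190514 and 0.59 within run 200212, a difference of -0.46 ± 0.25 (adjusted p = 0.984). In 20E with DMSO it was -0.10 ± 0.13 (-0.37 to 0.17, adjusted p = 0.999). In 20E with JH3 foxo fell by 0.94 on the log2 scale (SE 0.12, adjusted p = 2.35e-05), by 1.05 and 0.86 within the runs. Leaving out any 1 library kept the JH3 call, with estimates of 0.73 to 0.94.

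**Figure D2:**
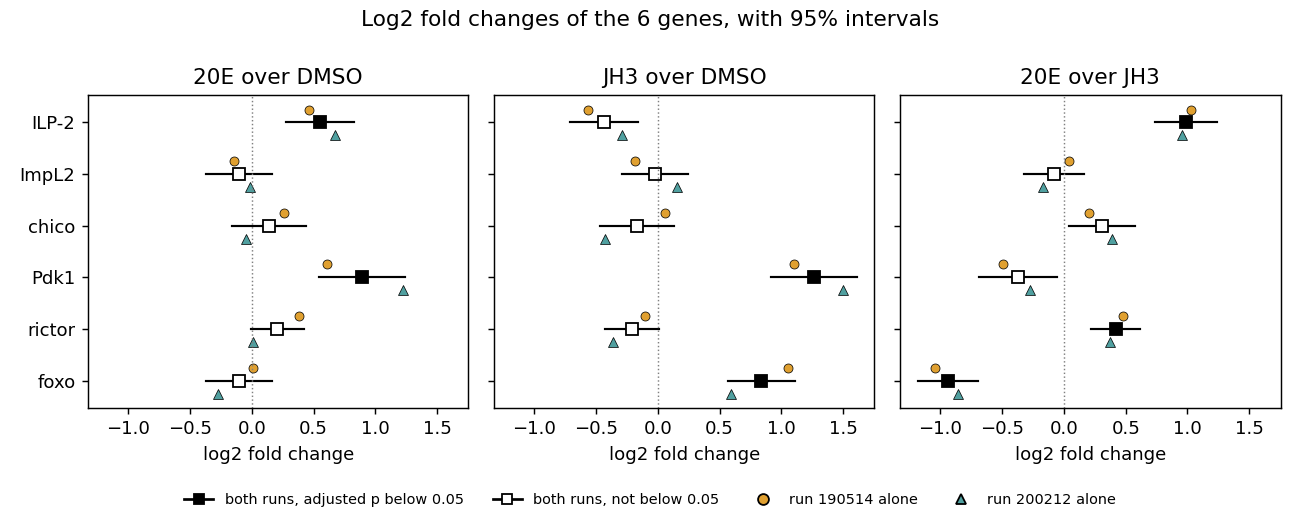
Log2 fold change (x axis) of each gene in 20E over DMSO, JH3 over DMSO and 20E over JH3, with squares and 95% intervals from the fit over both runs, circles for run 190514 alone and triangles for run 200212 alone. Filled squares have an adjusted p below 0.05: ILP-2 and Pdk1 in the first panel, Pdk1 and foxo in the second, ILP-2, rictor and foxo in the third.

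FPKM values are per length, so levels can be set side by side within a group. In DMSO the order of mean levels was Pdk1 (33.4 ± 6.80 FPKM), ImpL2 (15.6 ± 2.46), chico (13 ± 3.31), rictor (10.9 ± 3.06), ILP-2 (10.6 ± 1.97) and foxo (4.76 ± 1.51, SD, n = 5). Pdk1 at the top and foxo at the bottom were apart from their neighbours in every library, and the 4 genes between them overlapped. Pdk1 lay above 90.0% of tested genes in DMSO and foxo above 34.3%. In 20E, Pdk1 and foxo were again apart from the rest, and ILP-2 stood next to Pdk1 in the order with a range that overlapped those of chico, ImpL2 and rictor. In JH3 the order was Pdk1, ImpL2, chico, rictor, foxo and ILP-2, with foxo (9.18 ± 1.67 FPKM) and ILP-2 (7.38 ± 1.25 FPKM) overlapping.

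By FPKM, the ligand and the factor thus changed places in most JH3 brains. In reads, not divided by length, foxo lay above ILP-2 in DMSO too (1506 to 2029 against 496 to 1264 reads). ILP-2 exceeded foxo in 7 of 7 20E libraries, 2 of 7 JH3 libraries and 5 of 5 DMSO libraries. A ratio within a library does not depend on how libraries are scaled. Its size, and which gene is higher, depend on the gene lengths used, which were not given. Its change between groups does not. The ratio of ILP-2 to foxo ran from 1.78 to 5.60 in 20E (median 3.33), from 0.626 to 1.28 in JH3 (median 0.799) and from 1.15 to 3.44 in DMSO (median 2.88). The 20E libraries were all above the JH3 libraries, and the 2 DMSO libraries of run 200212 had the lowest ratios of their group. ILP-2 exceeded ImpL2, its binding protein in flies, in 4 of 7 20E libraries and in none of the 7 JH3 or 5 DMSO libraries. That ratio ran from 0.734 to 1.62 in 20E, from 0.405 to 0.666 in JH3 and from 0.616 to 0.765 in DMSO. Pdk1 over chico ran from 3.13 to 6.91 in 20E, from 5.07 to 9.61 in JH3 and from 1.94 to 3.22 in DMSO. These ratios are descriptions and were not tested.

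**Figure D3:**
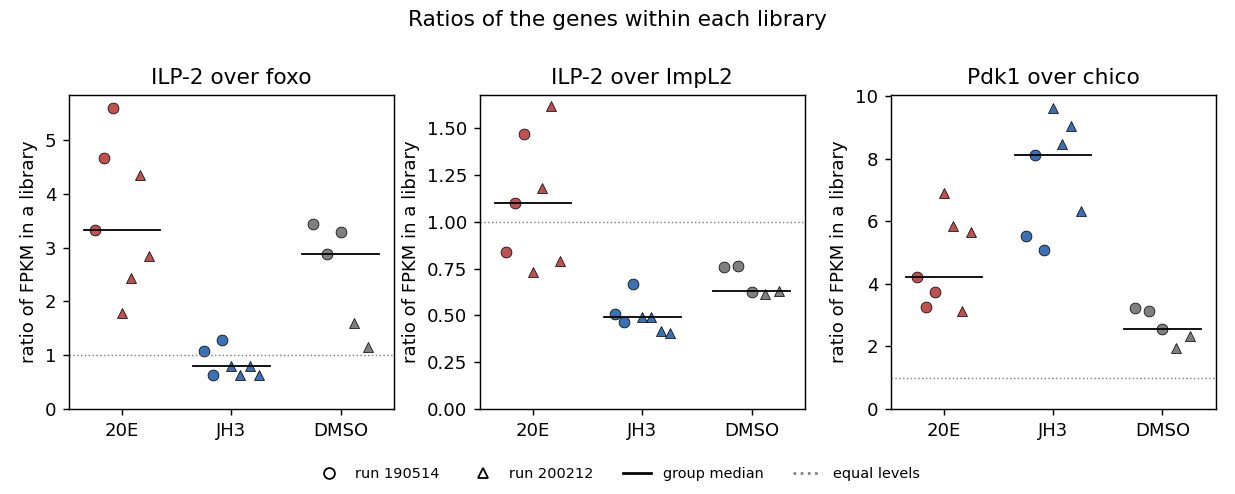
Ratio of FPKM values within each library (y axis, from 0) for ILP-2 over foxo, ILP-2 over ImpL2 and Pdk1 over chico in the 20E, JH3 and DMSO groups, with a line at the group median and a dotted line at equal levels. ILP-2 over foxo lies between 0.626 and 1.28 in JH3 and between 1.78 and 5.60 in 20E.

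The rest of the cascade was described from a list of insulin and TOR genes, in which 50 genes had a symbol of the list and 49 were tested. The insulin receptor and S6 kinase had no such symbol and are not analysed here. Beyond the 6 genes, 43 others were tested. Of these, 3 rose and 0 fell under 20E, 1 rose and 0 fell under JH3, and 1 was higher and 0 lower in 20E than in JH3, where 3.34%, 0.927% and 5.34% of all tested genes passed in either direction. The median log2 fold change of the 43 was -0.01 for 20E with DMSO, -0.06 for JH3 with DMSO and 0.03 for 20E with JH3, beside -0.01, 0.00 and -0.02 over all tested genes.

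The growth regulator gene Myc rose in both groups, with 4.18 ± 0.926 FPKM in 20E, 3.70 ± 0.912 FPKM in JH3 and 1.74 ± 0.467 FPKM in DMSO (log2 1.0 ± 0.15, adjusted p = 0.0004, and 0.84 ± 0.15, adjusted p = 0.00537). Sesn, the gene of sestrin, an inhibitor of Tor complex 1, had 45.1 ± 11.4 FPKM in 20E, 30.5 ± 3.88 FPKM in JH3 and 30.7 ± 1.79 FPKM in DMSO. It was higher in 20E than in JH3 by log2 0.53 ± 0.12 (adjusted p = 0.00808) and rose under 20E relative to DMSO by 0.53 ± 0.13 (adjusted p = 0.0283). Its rise over DMSO lost the call when 20E replicate 3, or DMSO replicate 1, 3, 4 or 5, was left out (adjusted p = 0.0531 to 0.0885). The amino acid transporter gene path, which promotes growth through Tor in flies, rose under 20E (7.13 ± 1.58 FPKM, against 4.52 ± 1.45 FPKM in DMSO, log2 0.53 ± 0.13, adjusted p = 0.0271). Its estimate under JH3 was 0.47 ± 0.13 (6.87 ± 1.81 FPKM, adjusted p = 0.126, and 0.0349 without DMSO replicate 2). The path call under 20E was lost without 20E replicate 3 or 5 or DMSO replicate 3 or 4 (adjusted p = 0.0546 to 0.137), and without the run term (0.166).

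**Figure D4:**
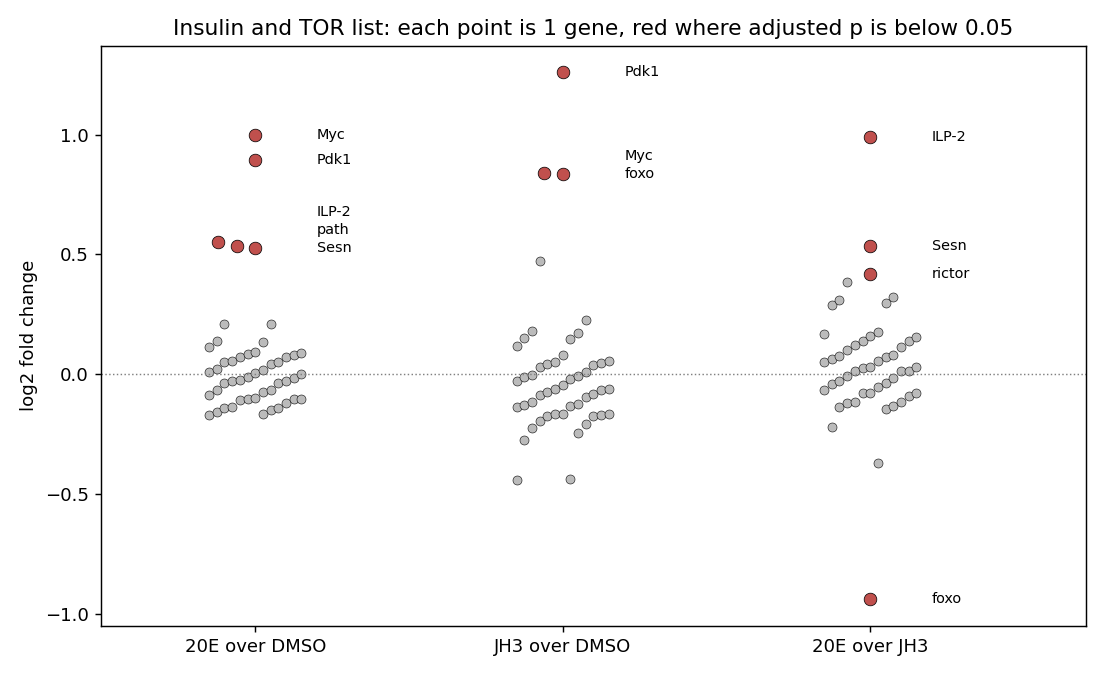
Log2 fold change (y axis) of each of the 49 tested genes of the insulin and TOR list in 20E over DMSO, JH3 over DMSO and 20E over JH3, with red points where the adjusted p is below 0.05. The called genes are 5 in the first column, 3 in the second and 4 in the third, and the remaining genes lie between -0.44 and 0.47 in all 3 columns.

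The genes of the phosphoinositide 3-kinase subunits and of Akt did not pass in any comparison. The catalytic subunit gene Pi3K92E had log2 fold changes of -0.04 ± 0.09 for 20E with DMSO and -0.12 ± 0.09 for JH3 with DMSO. The regulatory subunit gene Pi3K21B had 0.13 ± 0.15 and 0.15 ± 0.15. Akt itself had 5.45 ± 0.371 FPKM in 20E, 5.42 ± 0.722 FPKM in JH3 and 5.2 ± 0.498 FPKM in DMSO, with estimates of 0.04 ± 0.08 and 0.03 ± 0.08.

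On the Tor side, Tsc1 and gig, which encode the complex that restrains Rheb, had estimates of -0.07 ± 0.08 and 0.02 ± 0.11 under 20E and of -0.09 ± 0.08 and -0.08 ± 0.11 under JH3. The GTPase gene Rheb had 0.08 ± 0.08 and 0.15 ± 0.08. Tor had 0.02 ± 0.15 under 20E and -0.27 ± 0.15 under JH3. The gene raptor, whose protein marks Tor complex 1, had 11.3 ± 3.28 FPKM in 20E, 9.03 ± 2.54 FPKM in JH3 and 11.3 ± 2.31 FPKM in DMSO (-0.12 ± 0.13, adjusted p = 0.999, and -0.44 ± 0.13, adjusted p = 0.175). The partners of rictor in Tor complex 2 had -0.14 ± 0.09 (Sin1) and -0.14 ± 0.08 (Lst8, also in complex 1) under 20E, and -0.20 ± 0.09 and -0.06 ± 0.08 under JH3. In 20E with JH3 these were 0.06 ± 0.08 and -0.08 ± 0.07.

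Among 8 tested genes known as foxo targets in flies, 3 rose under 20E, 2 rose under JH3 and 1 was higher in 20E than in JH3, with none lower. Over all tested genes the calls in either direction were 3.34%, 0.927% and 5.34% in these comparisons. Beside Myc and Sesn the called gene was Atg17, an autophagy gene, with 41.6 ± 12.0 FPKM in 20E, 40.5 ± 9.18 FPKM in JH3 and 23.2 ± 7.59 FPKM in DMSO. Its log2 fold changes were 0.75 ± 0.14 under 20E (adjusted p = 0.00372) and 0.72 ± 0.14 under JH3 (adjusted p = 0.0144). The JH3 call of Atg17 was lost without DMSO replicate 3 (0.63, adjusted p = 0.0537) and without the run term (0.82, adjusted p = 0.137). The translation repressor gene Thor, a standard readout of foxo in flies, had 82.7 ± 33.5 FPKM in 20E, 98 ± 43.2 FPKM in JH3 and 91.6 ± 32.5 FPKM in DMSO. Its estimates were -0.04 ± 0.24 and 0.18 ± 0.24 (adjusted p = 0.999 and 0.777).

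Of 9 tested genes for signals known to act on the insulin-producing neurons of flies, 1 passed, in 20E with DMSO (3.34% of all tested genes) and in 20E with JH3 (5.34%). SIFR, the receptor gene of the peptide SIFamide, had 4.54 ± 2.44 FPKM in 20E, 1.75 ± 0.518 FPKM in JH3 and 1.51 ± 0.822 FPKM in DMSO. It rose under 20E relative to DMSO (log2 1.31 ± 0.31, adjusted p = 0.0201) and was higher in 20E than in JH3 (1.09 ± 0.28, adjusted p = 0.0231). The first call was lost without 20E replicate 3 or DMSO replicate 1 or 3 (adjusted p = 0.0567 to 0.0642) and with the replicate block (0.0632). The second was lost without 20E replicate 3 or JH3 replicate 4 or 6 (0.0524 to 0.0616), and without 20E replicate 6 and JH3 replicate 1 together (0.0629).

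The genes whose levels ran most alike to each of the 6 were ranked by Pearson r over the 19 libraries after removal of run means, among genes with a symbol. The libraries share treatment, depth and composition, so these r are descriptions. For ILP-2 they were ClC-a (r = 0.939), a chloride channel gene, and axo (r = 0.926), the gene of a neurexin-like protein that fly glia secrete. ClC-a had 9.52 FPKM in 20E, 5.05 in JH3 and 6.53 in DMSO, and axo had 7.51, 2.95 and 4.53 FPKM in the same groups. For foxo they were the transcription factor genes Mef2 (r = 0.953, 71.7 FPKM in 20E, 143 in JH3 and 79.7 in DMSO) and klu (r = 0.925). For Pdk1 they were neur (r = 0.852), an E3 ligase gene of Notch signalling, and Oatp74D (r = 0.851), the ecdysone importer gene. Those of chico were CAP (r = 0.935) and nAChRalpha4 (r = 0.920), those of rictor Daxx (r = 0.937) and Ac3 (r = 0.920), and those of ImpL2 Mettl2 (r = 0.801) and SmB (r = 0.753).

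With group means removed as well, the likeness of ILP-2 to ClC-a was r = 0.632 and to axo r = 0.619. For foxo the values were 0.773 with Mef2 and 0.649 with klu, and for Pdk1 0.585 with neur and 0.446 with Oatp74D. For chico they stayed at 0.925 and 0.899, for rictor at 0.878 and 0.826, and for ImpL2 at 0.797 and 0.753, the 3 genes with no call relative to DMSO.

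Whether the 6 genes varied together between libraries, after removal of group effects and the run effect, was examined for the 15 pairs. A group effect particular to 1 run was not removed. The r values can therefore hold differences between sets of the same group and run as well as between single ants. Shuffling within group and run kept those differences, so the shuffled r values need not be centred on 0. No pair passed after adjustment (permutation within group and run, 100000 resamples, two-sided, lowest adjusted p = 0.46 for Pearson and 0.519 for Spearman). The pair with the highest r was chico and rictor (Pearson r = 0.573, permutation p = 0.0315; Spearman rho = 0.461, permutation p = 0.115; n = 19). It was r = 0.432 without 20E replicate 6 and DMSO replicate 5, and 0.396 and 0.713 within the runs. Pdk1 and foxo had r = 0.531 (permutation p = 0.0613; Spearman rho = 0.456, permutation p = 0.0651), r = 0.410 without DMSO replicate 4 and JH3 replicate 2, and 0.623 and 0.395 within the runs. ILP-2 and foxo had r = -0.379 (permutation p = 0.129, and Spearman rho = -0.381 with permutation p = 0.186). Their r was -0.495 without 20E replicate 6 and JH3 replicate 6, and -0.874 and -0.204 within the runs. Among all tested genes, an r stronger in size than that of chico and rictor was held by 37.5% with chico and 26.2% with rictor. For Pdk1 and foxo the shares were 2.01% with Pdk1 and 8% with foxo. For ILP-2 and foxo they were 42.6% with ILP-2 and 22% with foxo.

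Markers of other cells in the dissected tissue were set beside these results. The 6 neuron markers matched, among them nSyb (169 ± 30.6 FPKM in 20E, 155 ± 24.7 in JH3 and 162 ± 13.6 in DMSO), had no call in any comparison. The summed level of 7 glial markers was 529 to 921 FPKM in 20E, 442 to 878 in JH3 and 774 to 1071 in DMSO. Most of this sum was 1 gene, Gs2 (mean 558 FPKM in 20E, 501 in JH3 and 732 in DMSO), which was not called in any comparison. Of the 7 glial markers, 1 rose under 20E (Gli), 2 fell under JH3 (moody and Gat-a) and 3 (moody, Gli and drpr) were higher in 20E than in JH3. The last is the direction of ILP-2. The uncalled estimates for 20E with JH3 were 0.032 (repo), 0.145 (Gat-a), 0.174 (Gs2) and 0.187 (Nrx-IV). For 20E with DMSO they were -0.475 (Gat-a), -0.345 (Gs2), -0.268 (repo), 0.05 (moody), 0.0603 (Nrx-IV) and 0.364 (drpr). For JH3 with DMSO they were -0.519 (Gs2), -0.3 (repo), -0.187 (drpr), -0.126 (Nrx-IV) and 0.116 (Gli). Over all tested genes, 3.34% passed in 20E with DMSO, 0.927% in JH3 with DMSO and 5.34% in 20E with JH3. Of 4 fat body markers, 1 was matched by the symbol vg, which in flies is that of vestigial and not of vitellogenin. Among the fat body markers Lsd-1 alone was called, lower in 20E than in JH3 (log2 -0.82, adjusted p = 0.0149), the direction of foxo. For apolpp, vg and bmm the estimates were 0.306, 0.204 and -0.0266. Of 7 muscle and 7 eye markers matched, 6 of each were tested and none was called. The summed eye level ran from 18.8 to 412 FPKM in 20E, 11.2 to 416 in JH3 and 11.3 to 454 in DMSO, and the summed muscle level from 39.9 to 82.8, 31.0 to 191 and 37.2 to 82.7 FPKM. Arr2 had the largest mean of the eye markers (131 FPKM in 20E, 174 in JH3 and 206 in DMSO). Of 3 haemocyte markers, drpr, also on the glial list, was called, higher in 20E than in JH3. The 1 matched marker of the corpora allata, jhamt of juvenile hormone synthesis, had 0.0138 to 5.58 FPKM in 20E (median 0.039), 3.15 to 8.44 in JH3 (median 5.28) and 0.0221 to 4.77 in DMSO (median 4.10). Its estimate for 20E with JH3 was log2 -2.20 ± 0.68 (adjusted p = 0.0741), the sign of foxo and opposite to that of ILP-2, and it did not pass. The summed fat body level was 229 to 415 FPKM in 20E, 152 to 449 in JH3 and 200.9 to 466.4 in DMSO, most of it apolpp (mean 317, 267 and 298 FPKM). None of these markers was at 0 in all libraries of a group, and their part in the results was not tested.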

How the data were processed

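Central brains of single Harpegnathos saltator workers were profiled by poly(A) RNA-seq in 3 treatment groups. The authors deposited 1 table of FPKM values for 14001 genes in 19 libraries. These are reads per gene length and a library scaling that did not follow the reads on genes exactly. The submitters' processing notes list STAR, featureCounts, DESeq2 and bcl2fastq without versions, and build and annotation were not given in the sources used here. Library preparation kept strand, per the labels' protocols, and whether the counting used it is not stated.

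Symbols came from the RefSeq gene table of assembly Hsal_v8.6, which matched 13989 identifiers and named 4116. Whole read numbers were read back from the FPKM grid (100% within 0.02 of a whole number). In each library 42.6 to 44.1% of them were odd, over 9425 genes with at least 10 reads in every library. No library was thus read back at an even multiple of its reads, and the check cannot see odd multiples. Genes with at least 1 FPKM in at least 5 libraries (9381) were fitted as log2(FPKM + 0.5), so fold changes of low genes are understated. The fit used limma 3.58.1 in R 4.3.3, with a mean for each group, a run effect and trended empirical Bayes variances. Each comparison was adjusted by Benjamini-Hochberg, two-sided, at 0.05. The fit was tested on simulated data. Python 3.11.15, numpy 2.4.6, pandas 2.3.3, scipy 1.17.1 and matplotlib 3.10.9 were also used.

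The 6 genes and the lists were chosen with earlier results of these data known. Named genes were the 6, called or direct-cascade members of the insulin and TOR list, called members of the other lists, and the 2 genes most alike to each of the 6. List names were matched to symbols ignoring case. Alternatives were other pseudocounts, filters, scalings, weights and run terms, voom on the reads read back, a replicate block, and leaving out libraries.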

Additional observations from a re-analysis of the deposited data

Results flagged for a closer look

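Among 18 sets of values, the 6 genes in 3 groups, 2 held a library apart from the others of its group, its gap to the nearest value being a larger share of the range than chance usually gives. Chance flags about 1 in 20 sets. The first was chico in 20E replicate 6 at 24.94 FPKM, where the other 20E libraries had 12.51 to 14.38. The second was ImpL2 in JH3 replicate 6 at 20.11 FPKM, where the other JH3 libraries had 13 to 15.48. No hormone effect of the 6 genes differed between the run labels after adjustment by limma (adjusted p = 0.984 to 0.999).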

How the results depend on the processing

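Of 594 recomputed fold changes of the 6 genes (18 results under 33 alternatives), 567 kept their direction and side of the threshold, 13 lost the call, 4 gained one and 10 changed sign, 0 of them with a call in either fit. In run 190514 alone the changed values were 0.04 for ImpL2 in 20E with JH3, 0.06 for chico in JH3 with DMSO and 0.01 for foxo in 20E with DMSO. In run 200212 alone they were 0.16 for ImpL2 in JH3 with DMSO and -0.04 for chico in 20E with DMSO. With a library left out, ImpL2 ran from -0.09 to 0.04 in JH3 with DMSO and from -0.14 to 0.00 in 20E with JH3, and foxo from -0.16 to 0.00 in 20E with DMSO. Uncalled values of other named genes changed sign too. Atg17 in 20E with JH3 was -0.03 both scaled to total reads and with voom, -0.04 with library weights, -0.05 in run 200212 and -0.11 without 20E replicate 6 and JH3 replicate 1. In JH3 with DMSO, SIFR was -0.26 in run 200212 and Sesn 0.11 in run 190514, and path in 20E with JH3 was -0.00 with voom. With a library left out Atg17 ran from -0.05 to 0.12, SIFR from -0.02 to 0.41 and Sesn from -0.06 to 0.02 in these comparisons. Of the 6 genes, 2 were called for 20E with DMSO, but 1 without the run term, 0 in run 190514 alone, 1 in run 200212 alone and 1 to 2 with a library left out. For JH3 with DMSO 2 were called, but 0 and 1 in the runs alone. For 20E with JH3 3 were called, but 4 when libraries were weighted, 2 without the run term and 2 in each run alone. Over all genes 20E with DMSO had 313 calls, and 551 with library weights, 193 without the run term, 120 in run 190514 and 50 in run 200212. Of the 313, 243 were higher and 70 lower, against 228 and 110 when scaled to total reads. 20E with JH3 had 501 calls, and 788, 313, 169 and 160 under the same 4 settings. JH3 with DMSO had 87, and 180, 49, 14 and 8 under those settings, 151 scaled to total reads, 159 with voom on reads, 134 without 20E replicate 6 and JH3 replicate 1, and 60 to 137 with 1 library left out, the highest without 20E replicate 6. On the insulin and TOR list, the 5 calls for 20E with DMSO became 3 without the run term, 0 and 2 in the runs, and 2 to 5 with a library left out (2 without 20E replicate 3 or DMSO replicate 4, 3 without DMSO replicate 3 or 5). The 4 for 20E with JH3 became 7 with library weights and 2 in each run, and the 3 for JH3 with DMSO became 5 with library weights and 0 in run 190514. The runs alone hold fewer libraries; other causes were not tested.

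No label says that libraries of the same replicate number share a colony or day. After removal of group and run means, same-numbered libraries correlated between -0.429 and 0.368. In 12 of 34 checks a library was most alike to its own number. The share expected by chance was not computed, so these values do not decide whether the numbers pair the libraries. With the replicate block, 274 genes were called for 20E with DMSO, 96 for JH3 with DMSO and 531 for 20E with JH3, and 2, 3 and 3 of the 6 genes. The number of ants limits every estimate, and DMSO rests on 5.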
